A study of Homo sapiens with 3 samples.

Results

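Mitochondrial ribosomal protein genes were followed across 3 expression arrays, 1 per group, of a colorectal cancer line carrying full-length LATS2 (the LATS2 array), residues 1 to 625 of LATS2 (the LATS2N array) or an empty vector (the control array). Members were all genes whose probe set has a single symbol of the form MRPL or MRPS, a number and an optional letter in the platform annotation. There were 75 of 19775 genes measured, 48 with large subunit (MRPL) and 27 with small subunit (MRPS) symbols, read by 140 probe sets. Of the 77 protein-coding genes that carry such a symbol in RefSeq, MRPL53 and MRPS24 had no probe set with only 1 symbol. The sample labels name the line SW620, whereas the series' design text names SW480; both are established colorectal cancer lines, and which was used cannot be told from these sources. All 3 cultures were infected with a virus and grown in DMEM with serum, and the design text calls the expression stable. LATS2 is a kinase that acts in Hippo signalling on YAP and TAZ, and the fragment ends before its kinase domain. The labels do not give the promoter that drives the constructs, nor whether each culture was 1 clone or a pool.

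Mitochondria translate the few proteins encoded by their own genome on ribosomes of bacterial descent. The ribosomal RNAs come from mitochondrial DNA, but every protein of the human mitoribosome is encoded in the nucleus, made in the cytosol and imported. The proteins made on these ribosomes are core subunits of the respiratory chain and ATP synthase. Part of the ribosomal proteins themselves have bacterial homologues, and the rest are specific to mitochondria. Structures place MRPS30 and MRPS18A in the large subunit despite their names.

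Sequence before the transcription start was examined for what the members share beyond their name. RefSeq promoters of build GRCh38.p14, 250 bases before to 50 after each start, were listed for 67 of the 75 genes with 83 start sites. The promoters shown are those of the genes with the lowest and highest ratio in the comparisons below, where a single start is listed: MRPL22 (lowest, LATS2 against control and against LATS2N), MRPL51 (highest, LATS2 against control), MRPL33 (highest, LATS2N against control) and MRPL1 (highest, LATS2 against LATS2N). MRPL2, lowest for LATS2N against control, has no entry in the table used here. They are written 5′ to 3′ on the gene's strand, with matches to NRF1, ETS or YY1 motifs in capitals.
MRPL22, chr5:154940823-154941122, plus strand: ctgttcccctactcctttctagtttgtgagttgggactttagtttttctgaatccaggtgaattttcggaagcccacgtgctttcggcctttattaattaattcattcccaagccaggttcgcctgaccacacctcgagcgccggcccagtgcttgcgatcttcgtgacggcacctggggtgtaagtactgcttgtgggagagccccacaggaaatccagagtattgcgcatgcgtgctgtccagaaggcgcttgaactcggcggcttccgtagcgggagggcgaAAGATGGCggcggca
MRPL51, chr12:6493213-6493512, minus strand: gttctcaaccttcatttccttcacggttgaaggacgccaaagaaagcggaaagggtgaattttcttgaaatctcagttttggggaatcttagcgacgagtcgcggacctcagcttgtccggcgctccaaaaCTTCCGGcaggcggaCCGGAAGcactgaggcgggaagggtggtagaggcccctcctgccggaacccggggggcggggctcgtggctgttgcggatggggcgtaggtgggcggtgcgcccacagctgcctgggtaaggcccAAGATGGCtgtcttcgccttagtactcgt
MRPL33, chr2:27771469-27771768, plus strand: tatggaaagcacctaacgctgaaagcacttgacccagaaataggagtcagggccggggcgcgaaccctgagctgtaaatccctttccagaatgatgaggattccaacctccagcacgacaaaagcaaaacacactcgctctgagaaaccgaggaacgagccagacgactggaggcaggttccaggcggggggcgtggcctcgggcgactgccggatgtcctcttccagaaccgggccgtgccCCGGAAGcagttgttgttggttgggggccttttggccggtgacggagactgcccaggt
MRPL1, chr4:77862580-77862879, plus strand: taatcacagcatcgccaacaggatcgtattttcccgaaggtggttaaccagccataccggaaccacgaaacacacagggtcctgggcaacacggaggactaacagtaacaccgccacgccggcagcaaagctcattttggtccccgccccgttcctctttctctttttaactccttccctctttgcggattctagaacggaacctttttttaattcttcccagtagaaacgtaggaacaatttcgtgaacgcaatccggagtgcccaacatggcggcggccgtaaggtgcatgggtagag
The MRPL22 promoter holds 1 YY1 match after the start, that of MRPL51 holds ETS matches on both strands and a YY1 match, that of MRPL33 holds 1 ETS match, and that of MRPL1 holds none of the 3 motifs.

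Motifs for factors known to act on nuclear genes for mitochondria were searched on both strands, and a gene counted where any listed start held a match. The ETS motif CCGGAAG, which GABP binds, was in 29 of 67 member promoters (43.3%), 25.8% of the 6349 genes that reached 500 on any array (the bright genes), and 12.2% of all 27305. The YY1 motif AAGATGGC was in 20 of 67 (29.9%), against 7.99% of the bright genes and 3.52% of all. The motif of NRF1 was in 9 of 67 (13.4%), against 15.7% and 6.98%. So ETS and YY1 matches were more frequent among members than among bright genes, and NRF1 matches were not. Of the 67, 46 (68.7%) held at least 1 of the 3 motifs, against 42.3% of the bright genes. Shares of other motifs lay nearer to the bright genes or below them: the MYC E-box CACGTG 13.4% against 14%, the TEAD motif GGAATG, bound by the partners of YAP, 16.4% against 14.4%, the SP1 motif GGGGCGG 44.8% against 60.1%, and CCAAT 34.3% against 44.2%. Median GC content was 60% in the members and 65.3% in the bright genes. No match of 1 motif overlapped a match of another. These are matches of letters with no test, not evidence of binding.

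**Figure D1:**
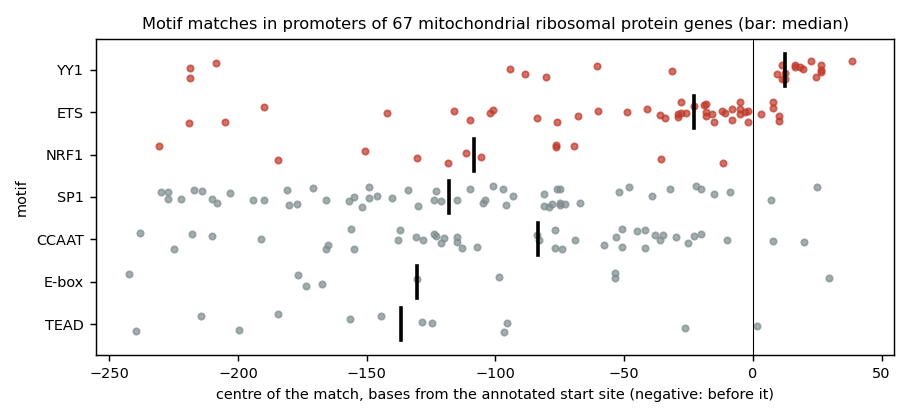
Centre of each motif match in bases from the annotated start site (x axis) for 7 motifs (y axis) in the promoters of 67 member genes, with 1 point per match and start site and a bar at the median. YY1 matches gather just after the start (median 12.5) and ETS matches just before it (median -23), while the other motifs lie further upstream.

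YY1 matches lay at the start site: 16 of 23 were centred within 50 bases of it, 17 of the 23 were on the gene's own strand, and the median centre was 12.5 bases after the start. ETS matches lay mostly near it too, with 31 of 43 within 50 bases and a median of -23. A match was counted at each start whose window held it, and the near-palindromic NRF1 motif on each strand it matched. The log2 ratio, LATS2 against control, had a median of 0.021 in 29 genes with an ETS match and 0.033 in 38 without, and 0.018 in 20 genes with a YY1 match and 0.032 in 47 without.

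Many members start close to a neighbour. A gene on the opposite strand starting within 1000 bases, head to head, was listed for 25 of 67 members (37.3%) and for 24.1% of the 15382 measured genes with a promoter. All members were bright, and the share among the bright genes alone was not computed. MRPL46 and MRPS11, a large and a small subunit gene, are such a pair, and each counts among the 25. Among the others, MRPS12 pairs with SARS2, the mitochondrial seryl-tRNA synthetase, and MRPL49 with FAU, a cytosolic ribosomal protein fusion. These pairs were picked for their link to translation, which was not counted over all partners. Partners such as EME1, SKA3 and ZNF189 were listed as well. Against control, the log2 ratio of MRPS12 was 0.049 on LATS2 and 0.051 on LATS2N, beside 0.023 and -0.22 for SARS2. MRPL49 had 0.34 and 0.28, beside 0.10 and 0.12 for FAU. MRPL40 had 0.023 and 0.035, whereas its neighbour HIRA, a histone chaperone, had -1.14 and -0.67, so neighbours did not always have like ratios. HIRA was chosen after its values were seen.

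The deposited signals are MAS5 intensities on a linear scale, scaled to the same trimmed mean on each array. Signals under the median of all signals (50.5, the floor) were set to it, and a gene was called by size alone at a 2-fold difference, since 1 array per group allows no test and gives no replicate error. Fewer cells expressing a gene and less RNA per cell cannot be told apart in bulk RNA. Of the chosen markers, 9 of 11 epithelial and colorectal ones were above the floor on all 3 arrays (CDX1 and CEACAM5 were not), with summed signals of 130838 on LATS2, 132409 on LATS2N and 124980 on control. KRT18, KRT8, KRT19 and EPCAM carry that sum, but the markers of the list did not share a direction. KRT19 itself read 23812 on LATS2, 25698 on LATS2N and 24941 on control. On the same arrays KRT20 (112.3, 126.8 and 108.5) was lowest on control, and CDX2 (194.2, 141.4 and 176.6) was lowest on LATS2N. CDH1 read 2792 on LATS2, 3567 on LATS2N and 4421 on control, VIL1 read 3948, 4666 and 5013, and LGR5 read 330.6, 401.5 and 569.3, all lowest on LATS2. Of 8 measured markers of other cell types, 5 did not exceed the floor on any of the 3 arrays, and the summed signals were 770.5 on LATS2, 868.3 on LATS2N and 638.0 on control. COL1A1, a collagen gene of fibroblasts, carries most of that sum, with 596.5, 606.8 and 325.3, whereas PECAM1, an endothelial marker, read 85.0, 91.6 and 142.3. The part of these marker differences in the values below was not tested. LATS2 had 2 probe sets above the floor, with 219.2 and 377.1 on LATS2, 219.1 and 409.2 on LATS2N, and 205.7 and 385.2 on control. LATS2 signal on these probe sets was thus about the same with each construct as with the empty vector, and which part of the transcript they read is not known here.

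All 75 genes had a probe set above 500 on all 3 arrays, and 74 were above 1000. The floor therefore touches none of their ratios. Large subunit genes ranged from 766.9 to 20671 on LATS2 (median 5184), from 847.6 to 21826 on LATS2N (median 5406) and from 1101 to 20953 on control (median 5188). Small subunit genes ranged from 1677 to 11951 on LATS2 (median 4974), from 1726 to 14305 on LATS2N (median 5104) and from 1513 to 12603 on control (median 4758). By comparison, 36.5%, 36.3% and 35.9% of all genes were above 500 on the LATS2, LATS2N and control arrays. The probe set of highest mean signal was taken for each gene, which raises these levels. Signals of different probe sets are not levels of transcripts relative to each other, since probes differ in their response.

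**Figure D2:**
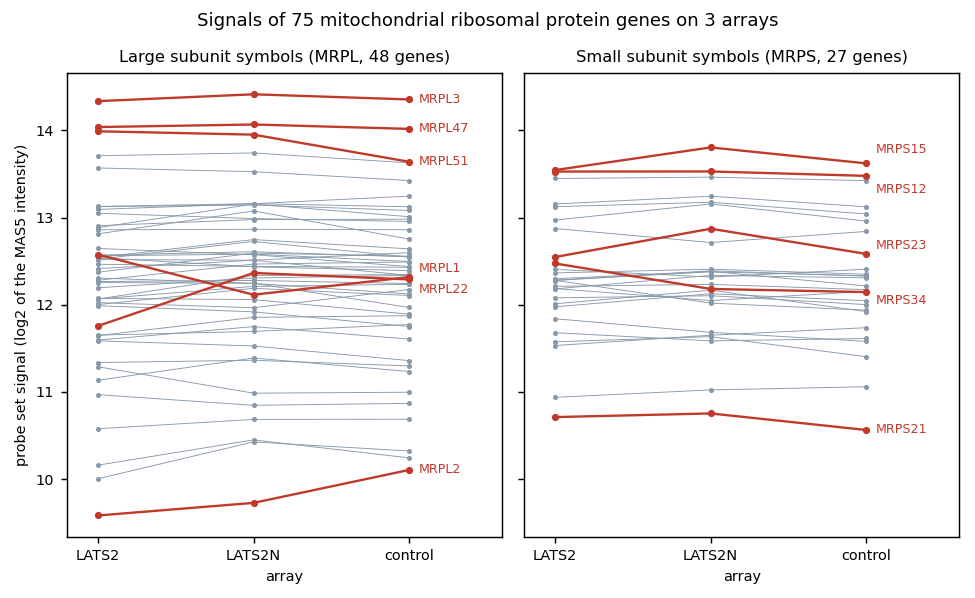
Log2 probe set signal (y axis) on the LATS2, LATS2N and control arrays (x axis) for 48 large subunit genes (left) and 27 small subunit genes (right), with 1 line per gene and named examples in red. The lines are nearly level; MRPL22 is low on LATS2 and MRPL1 low on LATS2N.

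Full-length LATS2 was set against control to ask whether mitoribosome genes differ with it. No member reached the 2-fold call, where 1.8% of 13186 genes that reached the floor did (0.594% of the 7402 genes at 500 or more). At 1.5-fold 0 members passed, where 10.3% of all genes and 3.55% of those at 500 or more did. The median log2 ratio was 0.0016 over the 48 large subunit genes, with 24 above and 24 below 0, and 0.032 over the 27 small subunit genes, with 18 above and 9 below 0. Over all genes it was 0.033, and 54.8% were above 0, so the 42 of 75 members above 0 (56%) are near the background. Ratios were within 0.2 of 0 for 58 of the 75 members (77.3%), against 63.6% of the genes at 500 or more. The backgrounds at 500 or more were not matched to the members for signal. Above 2000 on all arrays were 68 of the 75 members, but only 3146 of the 6839 genes above 500 on all arrays. Among those above 2000, the median log2 range between a gene's highest and lowest array was 0.154 in members and 0.168 in all genes. These shares therefore do not show that members vary less than other genes of like signal. For scale, the robust SD of a log2 ratio between probe sets of 1 gene was taken over all genes. It was 0.11 above a signal of 2000 and 0.18 between 500 and 2000. Over the members alone it was 0.15 (13 pairs) and 0.14 (26 pairs). This SD covers noise within an array pair and not differences between cultures.

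MRPL22, a homologue of the protein that lines the bacterial exit tunnel, had the lowest ratio. It read 3462 on LATS2, 5275 on LATS2N and 5009 on control. The LATS2 array stood apart from the other 2, 1.45-fold lower than control, on the gene's only probe set. MRPL2, a homologue of a core protein near the catalytic centre, read 766.9 on LATS2, 847.6 on LATS2N and 1101 on control, a log2 ratio of -0.52 for LATS2. Its other probe set, with 431.7, 486.1 and 370.5, went the other way (0.22), so the direction of MRPL2 is not settled. MRPL54, MRPL14, MRPL23 and MRPL41 followed, with log2 ratios between -0.32 and -0.21. MRPL54 read 1028 on LATS2, 1376 on LATS2N and 1281 on control. MRPL14 read 4287 on LATS2, 5170 on LATS2N and 5203 on control. LATS2 was the low array for both, and the same held for MRPL23 (3203, 3706 and 3754) and MRPL41 (4979, 5660 and 5757). The next brightest MRPL41 probe set, at 1364, 1642 and 1374, was nearly level between LATS2 and control.

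At the other end stood MRPL51, a mitochondria-specific protein, with 16265 on LATS2, 15836 on LATS2N and 12769 on control. Both construct arrays were above control, by 1.27-fold and 1.24-fold, on a probe set of a kind that can read related sequences. A further probe set, which the annotation gives to both MRPL51 and SPTLC1, read 3599, 3670 and 3532 and was nearly level. MRPS31 read 4974 on LATS2, 4149 on LATS2N and 3925 on control on its brighter probe set, and 3724, 3326 and 3543 on the other, both highest on LATS2. MRPL49, a mitochondria-specific protein, read 5065 on LATS2, 4857 on LATS2N and 4009 on control. MRPS34 read 5686 on LATS2, 4644 on LATS2N and 4530 on control, so that only the full-length construct array stood high. MRPL24, at the tunnel exit, and MRPS25 closed the 6 highest, with log2 ratios of 0.29 and 0.26. MRPS25 read 3664 on LATS2, 3289 on LATS2N and 3061 on control, highest on LATS2.

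**Figure D3:**
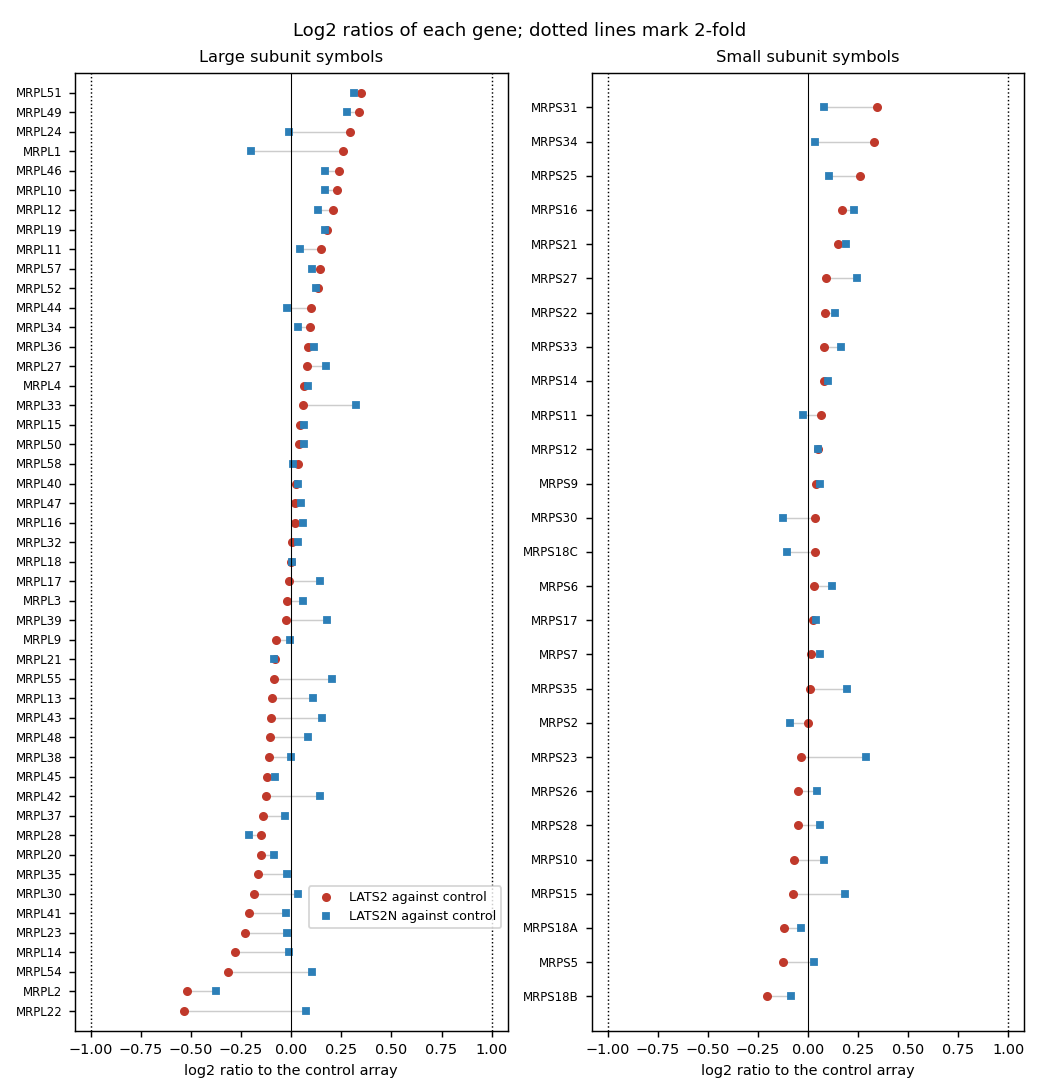
Log2 ratio to the control array (x axis) of LATS2 (circles) and LATS2N (squares) for each large subunit (left) and small subunit gene (right), ordered by the LATS2 ratio, with dotted lines at 2-fold. All points lie inside the dotted lines, from -0.53 for MRPL22 to 0.35 for MRPL51.

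The fragment lacking the kinase domain, LATS2N, was set against the same control array, so the 2 sets of ratios are not independent. No member was called, where 1.51% of 13245 genes and 0.0681% of those at 500 or more were. At 1.5-fold 0 members passed, where 8.13% and 1.78% did. The median was 0.059 over the large subunit genes (33 above 0, 15 below) and 0.061 over the small subunit genes (21 above, 6 below), against 0.023 over all genes. In all 54 of 75 members (72%) were above 0, where 53.6% of all genes and 52.3% of those at 500 or more were. Most of the ratios are small: 65 of the 75 were within 0.2 of 0, where 71.8% of the genes at 500 or more were. As above, the backgrounds at 500 or more were not matched to the members for signal. The spread between probe sets above a signal of 2000 was 0.087 over all genes and 0.11 over the members (14 pairs). Centred on the median of all genes, the large and small subunit medians were 0.036 and 0.039, and after quantile normalisation 0.029 and 0.060. With 1 array per group, a difference between the arrays and a shared shift of the genes cannot be told apart.

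The highest for LATS2N was MRPL33, a homologue of bacterial L33, which read 7196 on LATS2, 8634 on LATS2N and 6905 on control. Only LATS2N stood apart, 1.25-fold above control. MRPL51 and MRPL49 were next to MRPS23, MRPS27 and MRPS16 among the 6 highest, with log2 ratios from 0.23 to 0.31. MRPS23 read 5987 on LATS2, 7497 on LATS2N and 6137 on control, but its dimmer probe set, at 319.5, 314.1 and 373.2, was lower on LATS2N than on control. MRPS27 read 4128 on LATS2, 4599 on LATS2N and 3880 on control, and MRPS16, a homologue of bacterial S16, read 3050, 3179 and 2710, both highest on LATS2N. The other MRPS16 probe set, at 1390, 1292 and 1341, was lowest on LATS2N, so the direction of MRPS16 is not settled. The lowest were MRPL2 (-0.38), MRPL28 (-0.21), MRPL1 (-0.20), MRPS30 (-0.13), MRPS18C (-0.11) and MRPS2 (-0.090). MRPL28 read 4165 on LATS2, 4000 on LATS2N and 4622 on control, and MRPS2 read 5425, 5104 and 5433, both lowest on LATS2N. MRPL1, whose bacterial homologue forms the mobile stalk that helps release spent tRNA, read 6102 on LATS2, 4435 on LATS2N and 5105 on control, on opposite sides of control on the construct arrays.

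The comparison of both constructs, LATS2 over LATS2N, leaves out the control array but reuses both construct arrays. Each of its log2 ratios equals the LATS2 ratio to control minus the LATS2N ratio to control. Its counts are therefore not independent of those above. No member was called at 2-fold, where 1.59% of 13175 genes and 0.431% of those at 500 or more were. Within 0.2 of 0 were 58 of the 75 members, where 65.8% of the genes at 500 or more were. Here too the backgrounds at 500 or more were not matched to the members for signal. At 1.5-fold, 1 member passed, MRPL22, 1.52-fold lower on LATS2 than on LATS2N, where 9.34% of all genes and 3.22% of those at 500 or more passed. The median was -0.035 over the large subunit genes (16 above 0, 32 below) and -0.051 over the small subunit genes (7 above, 20 below), whereas it was 0.014 over all genes. Below 0 were 52 of the 75 members, where 47.7% of all genes and 45.2% of those at 500 or more were. Next lowest after MRPL22 were MRPL54 (1028 on LATS2 against 1376 on LATS2N), MRPS23, MRPL55, MRPL14 and MRPL42, with log2 ratios from -0.42 to -0.27. MRPL42 read 7564 on LATS2, 9119 on LATS2N and 8247 on control, so control lay between the constructs on that probe set. On its next brightest, at 3010, 3200 and 2810, control was the lowest array. Highest were MRPL1 (0.46), MRPL24 (0.30), MRPS34 (0.29), MRPS31 (0.26), MRPS30 (0.16) and MRPS25 (0.16).

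Over the 3 arrays together the members varied little. The log2 range between a member's highest and lowest array had a median of 0.15, from 0.0056 for MRPL18, a 5S rRNA-binding protein homologue of the central protuberance, to 0.61 for MRPL22. Among the 68 members above 2000 on all arrays the median range was 0.154, and among all 3146 such genes it was 0.168. The highest of the 3 arrays was LATS2 for 20 members, LATS2N for 40 and control for 15, and the lowest was LATS2 for 30, LATS2N for 9 and control for 36. Above control on both construct arrays were 36 members and below it on both were 15, with 6 above on LATS2 alone and 18 above on LATS2N alone; the constructs share the control array, so these counts carry no independent support.

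By role, the stalk that recruits translation factors was read by MRPL10, MRPL11 and MRPL12. MRPL12 read 6406 on LATS2, 6097 on LATS2N and 5550 on control. MRPL10 read 3074, 2951 and 2627 on the same arrays, and MRPL11 5960, 5538 and 5374. All 3 genes thus had the same order of arrays, with LATS2 ratios of 0.21, 0.23 and 0.15, while a dim further probe set of MRPL12, at 95.4, 150.6 and 123.0, was lowest on LATS2.

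The central protuberance, which joins the subunits over the tRNA sites, was split: of its 8 genes 4 were above and 4 below 0 for LATS2, with a median of 0.011, and 6 were above 0 for LATS2N, with a median of 0.058. MRPL46 was the highest for LATS2 (4065 on LATS2, 3870 on LATS2N, 3444 on control) and MRPL38 the lowest (1529, 1646 and 1649). MRPL18 read 7434, 7462 and 7438, level on all 3 arrays. MRPL27 read 5461 on LATS2, 5834 on LATS2N and 5173 on control. MRPL48 read 4101, 4667 and 4408 on the same arrays, and MRPL55 1144, 1399 and 1213. These 3 were highest on LATS2N, whereas MRPL40 (4928, 4967 and 4849) was nearly level. MRPS30 read 7509 on LATS2, 6717 on LATS2N and 7334 on control, and its next brightest probe set 1238, 1016 and 1007.

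The exit tunnel, through which the new chain reaches the inner membrane, had 4 of 9 genes above 0 for LATS2 with a median of -0.011, and 5 of 9 for LATS2N with a median of 0.051. It holds both an extreme low value, MRPL22, and a high one, MRPL24 (2501 on LATS2, 2028 on LATS2N, 2043 on control). MRPL45, which ties the ribosome to the membrane, read 3217, 3313 and 3500. MRPL47 read 16820, 17169 and 16578, nearly level at a high signal. MRPL4 read 6044 on LATS2, 6125 on LATS2N and 5775 on control. MRPL17, at the tunnel exit, read 3093, 3442 and 3117, and MRPL39 read 5884, 6774 and 5987. LATS2N was the high array for these 3, while MRPL44 read 2004, 1841 and 1870, highest on LATS2. Dimmer probe sets differed for MRPL4, where 1 read lowest on LATS2N (1494, 1270 and 1335), and for MRPL44, where the other read highest on LATS2N (359.5, 471.0 and 355.0).

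The bS18 family has 3 human genes, MRPS18A, MRPS18B and MRPS18C, of which different subunits carry different products. MRPS18A read 1962 on LATS2, 2081 on LATS2N and 2134 on control, and its other probe set 1884, 1726 and 1596, so the probe sets ran in opposite order. MRPS18B read 2962, 3215 and 3413, and its other probe set 2162, 2428 and 2399, so both read lowest on LATS2 while LATS2N lay on either side of control. MRPS18C read 4659, 4234 and 4556. One dim probe set read 96.8, 99.2 and 49.8, higher on both construct arrays with control just under the floor. Another read 23.6, 29.1 and 50.7, under the floor on both construct arrays and barely above it on control. On the brightest probe sets, 1 of the 3 was above control on LATS2 and 0 of the 3 on LATS2N, but for MRPS18A and MRPS18B the other probe set was above control on LATS2N.

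Grouped by descent, the 30 large subunit genes with a bacterial homologue had a median of 0.0016 for LATS2 and 0.047 for LATS2N, and the 18 mitochondria-specific ones -0.00094 and 0.092. In the small subunit, the 17 with a homologue had medians of 0.025 and 0.059, with 10 and 12 of the 17 above 0. The 10 specific to mitochondria had 0.083 and 0.12, with 8 and 9 of the 10 above 0. Of all members 56% and 72% were above 0, and of all genes 54.8% and 53.6%. A difference between these groups was not tested. The probe sets with the highest signal read MRPL3, MRPL47, MRPL51, MRPL36, MRPL57 and MRPL20 in the large subunit and MRPS15, MRPS12, MRPS17 and MRPS6 in the small. MRPL3, a homologue of a protein beside the catalytic centre, read 20671 on LATS2, 21826 on LATS2N and 20953 on control. MRPS12, a homologue of the decoding-centre protein S12, read 11808, 11818 and 11412, nearly level, and its next brightest probe set, at 1728, 1579 and 1809, was highest on control. MRPS15 read 11951, 14305 and 12603, highest on LATS2N. MRPL36 read 13389 on LATS2, 13696 on LATS2N and 12653 on control, and MRPL20 read 8738, 9143 and 9712, lowest on LATS2. MRPS17 (11177, 11296 and 10986) and MRPS6 (9125, 9707 and 8924) were both highest on LATS2N. Among the dimmest were MRPL2, MRPL54, MRPL55 and MRPL38, and MRPS21, MRPS18A, MRPS16 and MRPS11; MRPS21 read 1677 on LATS2, 1726 on LATS2N and 1513 on control, and MRPS11 read 3279, 3073 and 3132.

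Several probe sets allow a look at how firm these ratios are. A single probe set read 38 of the genes, and 37 had more, up to 5. For LATS2 against control 30 genes had several usable ones (above the floor on both arrays), which pointed the same way in 20 and not in 10. The difference between a gene's highest and lowest probe set had a median of 0.22. For LATS2N, 10 genes pointed one way and 20 did not, and for LATS2 against LATS2N 10 of 32 did. Probe sets of opposite direction lay over 0.5 apart for MRPL2, MRPL12 and MRPL57 in the first comparison, for MRPL2, MRPL30, MRPL41, MRPS5, MRPS12 and MRPS23 in the second, and for MRPL12, MRPL42, MRPL44 and MRPL57 in the third. Of these, the brightest probe set of MRPL30 read 5303 on LATS2, 6175 on LATS2N and 6023 on control, and that of MRPS5 4647, 5173 and 5073, both lowest on LATS2. Another MRPL30 probe set, at 880.3, 795.3 and 906.3, was lowest on LATS2N.

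MRPL57, a mitochondria-specific protein of the large subunit, had the widest gap. Its brightest probe set read 12151 on LATS2, 11796 on LATS2N and 10998 on control. Another read 827.7, 426.2 and 345.6, a log2 ratio of 1.26 for LATS2, and the remaining pair read 1300 and 505.4 on LATS2 against 1478 and 593.1 on control. The 4 thus did not share a direction, and 1 of them alone passed 2-fold. That probe set is of the type that can read related sequences, and RefSeq names 8 MRPL57 pseudogenes. In all, 39 members have a named pseudogene, 98 altogether, with 9 for MRPS21, and 44 members were represented by a probe set of a type that can read several transcripts. Signal from such copies was not tested.

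**Figure D4:**
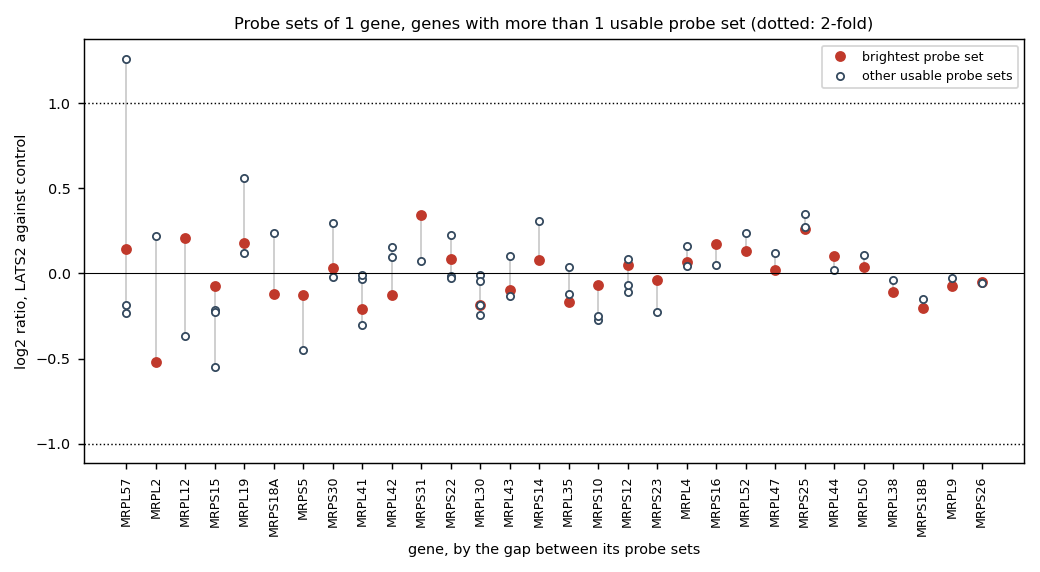
Log2 ratio, LATS2 against control (y axis), of each usable probe set for the 30 genes with more than 1 (x axis, by the gap between probe sets), with the brightest probe set filled. MRPL57 has a probe set at 1.26 and MRPL2 has probe sets on both sides of 0.

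Other mitoribosomal and mitochondrial translation genes were read from chosen lists. Of all genes, 1.8% were called for LATS2 against control, 1.51% for LATS2N against control and 1.59% for LATS2 against LATS2N. Of those at 500 or more, 0.594%, 0.0681% and 0.431% were. An absence of calls in lists this short is therefore near the background. The medians over all genes were 0.033 for LATS2 and 0.023 for LATS2N. Of 5 mitoribosomal proteins with other names, 4 had a probe set, and none was called. DAP3 read 6659 on LATS2, 7160 on LATS2N and 6516 on control, PTCD3 5062, 5103 and 5136, CHCHD1 7848, 8307 and 7638, and GADD45GIP1 4092, 4074 and 3618. These 4 had a median of 0.035 for LATS2 and 0.13 for LATS2N. Of 13 measured translation factors none was called, with medians of 0.050 and 0.092. OXA1L, the inner membrane insertase, and MTRF1L, a release factor, were the extremes for LATS2, at 0.27 and -0.18. MTRF1, a release factor, was highest for LATS2N at 0.40 and lowest for LATS2 against LATS2N at -0.49.

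No assembly or rRNA modification gene was called among the 20 that reached the floor, with medians of -0.016 and 0.086. FASTKD2, an RNA-binding protein of large subunit assembly, read 1456 on LATS2, 2200 on LATS2N and 1538 on control. A dimmer probe set, at 68.4, 105.2 and 97.3, also read highest on LATS2N. MTG2, an assembly GTPase, went the other way, with 978.9, 741.9 and 1044, and MTG1 and MTERF4 were the extremes for LATS2, at 0.30 and -0.19.

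Among 15 mitochondrial tRNA synthetases none was called, and the medians were 0.048 for LATS2 and -0.040 for LATS2N. In LATS2 against LATS2N 12 of the 15 were above 0, with a median of 0.062, where 52.3% of all genes were above 0. FARS2 read 1961 on LATS2, 1434 on LATS2N and 1369 on control, and its dimmer probe set 726.6, 609.5 and 598.4, the same order. HARS2 read 2439, 1781 and 1948. RARS2 was lowest for LATS2 (-0.19), SARS2 was lowest (-0.22) and YARS2 highest (0.28) for LATS2N, and RARS2 was lowest for LATS2 against LATS2N (-0.18).

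The regulators had medians of 0.021 and -0.0047 with no calls among 12. NRF1 read 492.4 on LATS2, 429.6 on LATS2N and 491.8 on control, GABPA 755.9, 831.0 and 836.4, and YY1 8033, 7257 and 7810. MYC, a transcription factor that raises ribosome synthesis, read 28341, 28423 and 24338, highest on the construct arrays. POLRMT, the mitochondrial RNA polymerase, read 1543, 1036 and 1221, the highest ratio of the list for LATS2 against LATS2N at 0.57, and TFB2M was lowest there at -0.21. PPARGC1B had the highest ratio for LATS2 (0.49) but its 2 dimmer usable probe sets, at 175.1 and 94.9 on LATS2 against 205.1 and 89.6 on control, gave -0.23 and 0.082. GABPA was lowest for LATS2 (-0.15) and PPRC1 for LATS2N (-0.32).

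Set beside the other gene groups of the ribosome and respiratory chain, which were not tested against the members, mitoribosomal medians against control were the lower values. Cytosolic ribosomal proteins had 52 of 58 above 0 for LATS2 (median 0.10) and 55 of 58 for LATS2N (median 0.12). Respiratory chain and ATP synthase subunits had 58 of 70 above 0 (median 0.089) and 67 of 70 (median 0.15). Of all genes, 54.8% were above 0 for LATS2 and 53.6% for LATS2N. Many genes of both lists, above all the cytosolic ones, had higher signals than most members. A dependence of the ratios on signal was not tested, and no other scaling was tried on these lists. In LATS2 against LATS2N the cytosolic and respiratory medians were -0.023 and -0.045, beside -0.035 and -0.051 for the large and small mitoribosomal subunits. The lists were drawn by symbol pattern: 1 cytosolic symbol, RPS4Y1, was called lower on both construct arrays, and the highest respiratory ratio against control was that of a pseudogene, ATP5MC2P1.

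**Figure D5:**
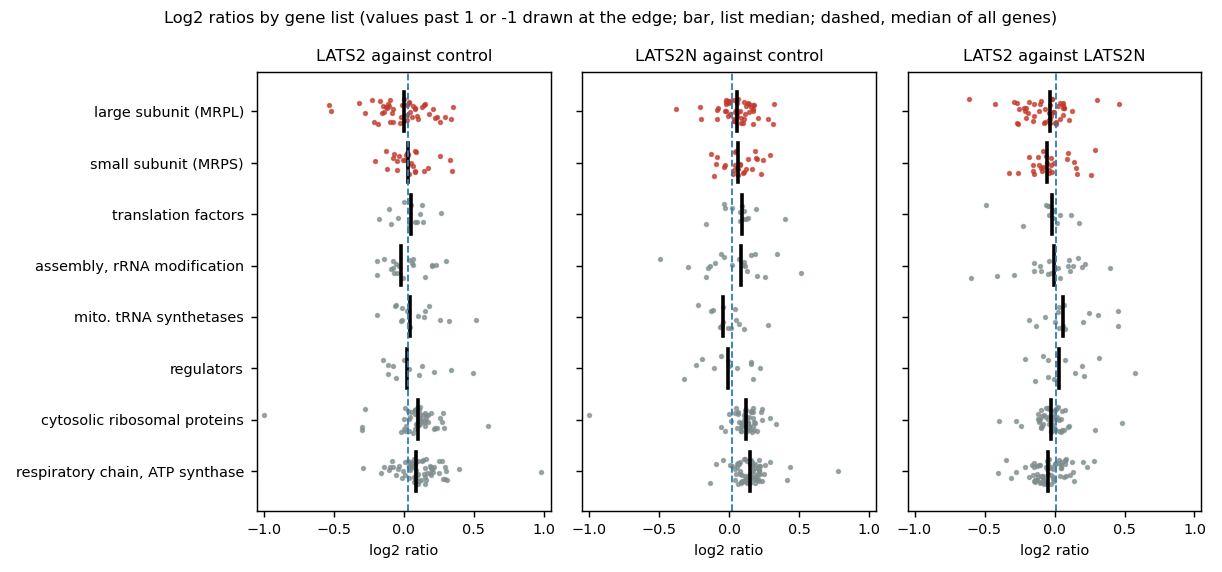
Log2 ratio (x axis) of each gene by list (y axis) in the 3 comparisons, with a bar at the list median and a dashed line at the median of all genes, values past 1 or -1 drawn at the edge. Against control, cytosolic ribosomal and respiratory medians lie to the right of the median of all genes, and mitoribosomal medians lie nearer to it. In LATS2 against LATS2N the large (-0.035) and small (-0.051) subunit medians lie to the left of that of all genes (0.014). The cytosolic (-0.023) and respiratory (-0.045) medians lie to its left as well.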

How the data were processed

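Per the submitters' processing notes, the deposited intensity values were made with MAS5, with no version or settings given in the sources used here. From the values, trimming 2% of signals at either end left a mean of 500.1 on all 3 arrays, so the authors' intensity values are on a linear scale, scaled to a common target, with no other normalisation between arrays visible. Depth is not defined for arrays, and the number of arrays limits the precision. Of 54675 probe sets, 41091 had exactly 1 gene symbol in the platform annotation, and 41037 of these were updated through gene identifiers to RefSeq (GRCh38.p14). Each gene was represented by its brightest probe set (mean log2 signal over the arrays). Signals were floored at the median of all signals, and log2 ratios taken. With 1 array per group no test, p-value or SD between samples exists, and calls are by size (2-fold).

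The members and gene lists were chosen with earlier results of these data known. Members were named if at either end of a comparison, brightest or dimmest, in a structural group, with disagreeing probe sets or called. The calls were tested on simulated signals with noise of a fixed size and shifts planted on genes above 500. The motif search was tested on short known strings. These tests check the computation and not the error of the arrays. Alternatives were other floors, probe set choices, scalings, filters and subunit assignment. Python 3.11.15, numpy 2.4.6 and pandas 2.3.3 were used.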

Additional observations from a re-analysis of the deposited data

How the results depend on the processing

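The subunit medians were recomputed under 9 alternatives for each of 6 medians, 54 values in all: floors at the 25th and 75th percentile or none, the median over probe sets, no probe sets of possible shared targets, centring on the median of all genes, quantile normalisation, a signal of at least 500, and MRPS30 and MRPS18A moved to the large subunit. The 3 floor settings and the signal of at least 500 could not move a median, since every member was above 500 on all arrays, so 24 of the 54 values were fixed by construction and 30 under the other 5 alternatives could differ. The sign turned in 3 of those 30, all in LATS2 against control, where the large subunit median ran from -0.032 to 0.029 and the small from -0.00093 to 0.032. For LATS2N against control the ranges were 0.029 to 0.064 and 0.039 to 0.080, and for LATS2 against LATS2N -0.055 to -0.017 and -0.065 to -0.023. No member was called at 2-fold in any comparison under the same alternatives. Leaving out possible shared targets left 42 or 43 genes. The floor settings, the signal of at least 500 and the move of MRPS30 and MRPS18A could not change the calls. They left the 75 members and their ratios as they were. At 1.5-fold, 1 member (MRPL22) was called in LATS2 against LATS2N and 0 in the other 2 comparisons. No paired analysis was possible because each group has 1 array, and leaving out a replicate was not possible for the same reason.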

Other observations

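A few probe sets related to these genes fall outside the members. KGD4, formerly counted as the small subunit protein MRPS36 and now placed in the alpha-ketoglutarate dehydrogenase complex, read 4210 on LATS2, 4639 on LATS2N and 4179 on control. A probe set shared by MRPL53 and CCDC142 read 5880, 5627 and 5423. One shared by MRPS24 and a read-through transcript read 18889, 17656 and 17049, above the highest small subunit member on each array (11951, 14305 and 12603). Being shared, these probe sets do not give the signal of MRPL53 or MRPS24 alone. The antisense transcript MRPL20-AS1 read 1151, 1132 and 1261, with log2 ratios of -0.13 and -0.16 for LATS2 and LATS2N against control, beside -0.15 and -0.087 for MRPL20 itself.

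HIRA, which starts head to head with MRPL40, read 2756 on LATS2, 3817 on LATS2N and 6056 on control on its bright probe set, with a further probe set under the floor on all 3. MRPL40 read 4928, 4967 and 4849. Of 19 head-to-head neighbours with a probe set, HIRA had the lowest log2 ratio for LATS2 against control.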
